A study of Mus musculus and Mus musculus
Rattus norvegicus with 30 samples.

Results

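The mouse and the rat form of the transcription factor Cdx2 were compared through the RNA of cells that overexpressed one or the other. Members were chosen by label, with earlier results of these data known. The comparison holds 6 of the 30 samples of the series, 3 with mouse Cdx2 (mCdx2-OE) and 3 with rat Cdx2 (rCdx2-OE). They form 3 settings with 1 library of each protein: mouse embryonic stem cells (mESCs) replicate 1, mESCs replicate 2, and RMES cells, which are fusion cells with a single set each of mouse and rat chromosomes. Tagged Cdx2 came from a lentiviral transgene under a doxycycline-inducible promoter, and polyadenylated RNA was taken after induction. The cells kept their own Cdx2 gene. The labels name no separate cultures or clones, so the spread between libraries may be technical. As further libraries, 14 from mESCs with 7 mutants of rCdx2, 2 from WT mESCs and 2 from WT RMES cells were used for context. Per the paper, the mutants are rCdx2 with the mouse-specific changes of the DNA-binding domain, singly and in every combination. Below, intact means mCdx2 or rCdx2 as found in the species. In RMES cells each protein has 1 library, so in that setting alone the difference has no replicate check.

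Cdx2 is a homeodomain protein that marks the trophectoderm, the first lineage to separate from the embryo proper, and it helps to keep the pluripotency factor Oct4 (Pou5f1) off there. Forced expression drives embryonic stem cells toward trophoblast, the tissue that builds the placenta. Later in development Cdx2 acts in the posterior body axis, upstream of Hox genes, and in the intestinal epithelium. The mouse and rat proteins differ within the DNA-binding domain, and the comparison asks whether the same cells read both proteins alike.

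The reads of Cdx2 itself matched the labels. In RMES cells, where reads were assigned to the closer genome, the mCdx2-OE library had 40590 Cdx2 counts on the mouse genome and 1770 on the rat genome, and the rCdx2-OE library had 186 on the mouse genome and 33680 on the rat genome. In mESCs all reads were aligned to the mouse genome, and Cdx2 had 98.9 and 124 CPM (counts scaled to the size of the library) with mCdx2 and 71.2 and 65.1 CPM with rCdx2, against 1.37 and 1.21 CPM in WT mESCs. The mCdx2 library held more Cdx2 RNA than the rCdx2 library in each setting, by 1.39 times in replicate 1, 1.91 times in replicate 2 and 1.25 times over both genomes of RMES cells (592 against 474 CPM). In mESCs this ratio includes any loss of rat transgene reads on the mouse genome. The part of Cdx2 dose in the differences that follow was not tested. WT RMES cells were not free of Cdx2 reads, with 247 and 241 CPM over both genomes.

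Across the 3 settings, 71 of 15285 genes tested (0.465%) differed between the proteins at an adjusted p under 0.05 (edgeR's quasi-likelihood test with the setting as a block, Benjamini-Hochberg adjustment). Of these, 50 (0.327%) were lower and 21 (0.137%) were higher with mCdx2 than with rCdx2. The differences were small. The median called gene differed by 0.35 on the log2 scale, 60 of the 71 by less than 1.5-fold, and only Tnc and Krt42 by more than 2-fold. All 71 had the same sign in each setting, which the test favours, and 32.6% of all tested genes did so too. The median over all tested genes was 0.01. These calls rest on the block: with the cell type kept but mESC replicates not paired, 0 genes passed in edgeR (497 at an unadjusted p under 0.05, against 1604 with the block), and with no block at all 0 passed (29 unadjusted). A fit that took its spread from all 24 RNA-seq libraries called 8 genes, 7 of them among the 71, and the split turned. Of the 8, 7 were higher with mCdx2 (A2m, Cdx2, D1Pas1, Dnah8, Gpx2, Krt42 and Rnf225) and Rsrp1 alone was lower. Cdx2, the gene not among the 71, owes its value in part to the sorting of its reads by species in RMES cells. In that fit Cxcl12, Tnc, Wnt5a, Gcm1, Gata2, Krt8, Krt18 and Peg10 lost their calls (edgeR adjusted p from 0.0553 to 0.109), with log2 fold changes of the same sign. Other called genes lay much further from the threshold there, such as H19, Sgpp1 and Sept1 (edgeR adjusted p = 0.8255, 0.7279 and 0.4076). The fit of mESCs without RMES cells gave 734 calls.

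The lowest adjusted p belonged to Cxcl12, the chemokine ligand of the receptor CXCR4 (chr6:117168535-117181367, plus strand, mm10). With mCdx2 it stood at 13.7 and 13.3 CPM in mESCs and 20.9 CPM in RMES cells, and with rCdx2 at 23.2, 22.97 and 37.2 CPM. Within each setting the mCdx2 library was thus the lower, and the ratios of the 3 settings lay close together, at -0.76, -0.79 and -0.83 on the log2 scale. The fitted log2 fold change was -0.80 (SE 0.0798, 95% interval -0.97 to -0.63, edgeR adjusted p = 0.000209). The rat copy of Cxcl12 in the RMES libraries, which did not enter the fit, had 738 counts with mCdx2 and 1435 with rCdx2, a log2 ratio of -0.95.

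Tnc, which encodes the matrix glycoprotein tenascin C, had 2.48, 2.96 and 2.42 CPM with mCdx2 and 5.92, 5.58 and 5.18 CPM with rCdx2 (log2 fold change -1.10, SE 0.167, edgeR adjusted p = 0.00473). No mCdx2 library overlapped an rCdx2 library. Wnt5a, a ligand of non-canonical Wnt signalling, had 3.51, 3.39 and 8.31 CPM against 7.12, 9.22 and 12.5 CPM (log2 fold change -0.90, SE 0.149, edgeR adjusted p = 0.00864). Its RMES library with mCdx2 lay above the first mESC library with rCdx2, so its groups separate only within settings. On the rat genome Wnt5a showed no such difference, with 619 and 623 counts.

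**Figure D1:**
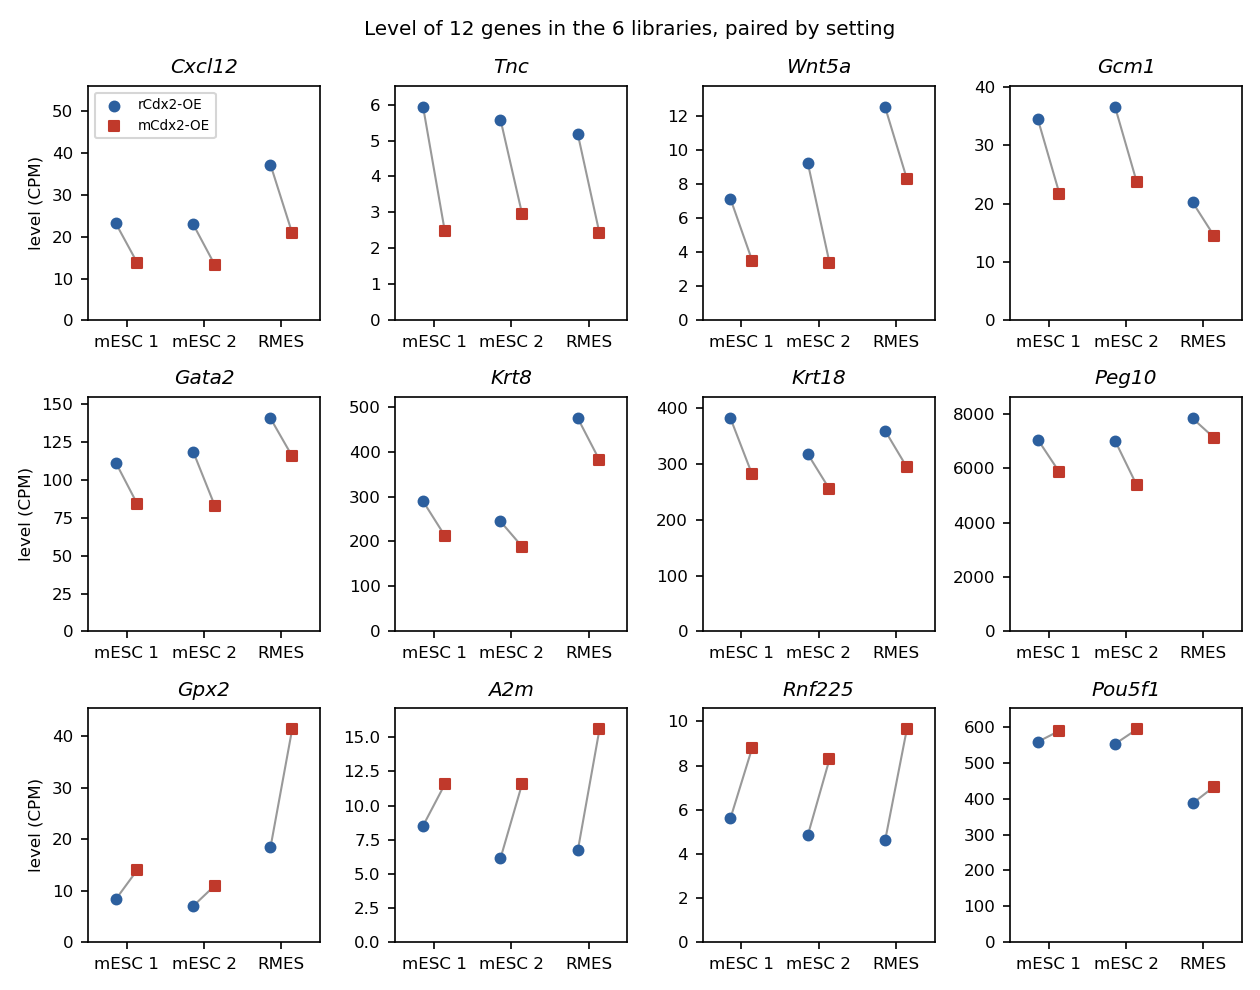
Level in CPM (y axis, from 0) of 12 genes in the 6 libraries, with mCdx2-OE as red squares and rCdx2-OE as blue circles, joined within each setting (x axis). The first 8 genes were lower with mCdx2 and Gpx2, A2m and Rnf225 higher in each setting, whereas Pou5f1 was not called (log2 fold change 0.12).

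Genes of trophoblast and placenta stood among those lower with mCdx2. Gcm1, the transcription factor that drives syncytiotrophoblast formation, had 21.7, 23.6 and 14.4 CPM with mCdx2 and 34.5, 36.5 and 20.3 CPM with rCdx2 (log2 fold change -0.59, SE 0.0774, edgeR adjusted p = 0.00158). Gata2, a trophoblast transcription factor, had 84.0, 83.0 and 116 CPM with mCdx2 and 112, 119 and 141 CPM with rCdx2 (log2 fold change -0.39, SE 0.0504, edgeR adjusted p = 0.00158). The levels of both genes differed between mESCs and RMES cells by about as much as between proteins, and the proteins separated within each setting. In these bulk libraries, fewer cells of a type and less RNA per cell cannot be told apart. The rat copies of both genes in RMES cells had ratios of the same sign, at log2 ratios of -0.48 for Gcm1 and -0.43 for Gata2.

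Of the list of trophoblast stem cell genes, 16 of 17 members were tested, and Gata2 alone was called. Of all tested genes, 0.327% were called lower, and their median was 0.01. The median of the trophoblast stem cell list was -0.09, with 12 members below 0. By setting it was -0.11 and -0.19 in mESC replicates 1 and 2 and -0.02 in RMES cells. Of the 16 members, 7 had the same sign in all settings. Summed levels were 541 against 603 CPM and 573 against 674 CPM in mESCs, lower with mCdx2, and 682 against 675 CPM in RMES cells. Gata3, another trophoblast GATA factor, was at a log2 fold change of -0.29 (edgeR adjusted p = 0.191), and Eomes, the T-box factor of the trophoblast stem cell, at 0.54 with the opposite sign (adjusted p = 0.179). Of the differentiated placental genes, 6 of 13 were tested, all 6 had values below 0, and Gcm1 alone was called. With so few members, nothing particular to either list was read from these counts. The median of the 6 placental genes was -0.34, and -0.51, -0.59 and -0.08 in mESC replicates 1 and 2 and in RMES cells. Dlx3, a homeobox gene of the placental labyrinth, had 10.9 against 17.3 CPM and 11.6 against 18.2 CPM in mESCs and 15.1 against 15.0 CPM in RMES cells (edgeR adjusted p = 0.217).

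All 4 keratins of simple epithelia on the list were called lower with mCdx2, against 0.327% of all tested genes called lower. They form the intermediate filaments of trophoblast and other single-layered epithelia. Nothing particular to keratins was read from so few members. Krt8 had 213, 189 and 381 CPM with mCdx2 against 289, 245 and 474 CPM with rCdx2 (log2 fold change -0.38, SE 0.0459, edgeR adjusted p = 0.0012). Its filament partner Krt18 had 281, 255 and 295 CPM against 382, 318 and 360 CPM (log2 fold change -0.35, SE 0.0465, edgeR adjusted p = 0.00158). These 2 genes are neighbours on chromosome 15, and Krt8 and Krt18 have many processed copies in the genome, with which reads may be shared. Krt7 and Krt19 followed with log2 fold changes of -0.30 and -0.37 (edgeR adjusted p = 0.0178 and 0.019). In the fit of 24 libraries these 2 also lost their calls (edgeR adjusted p = 0.256 and 0.522). On the rat genome, Krt7, Krt8 and Krt18 had log2 ratios of -0.40, -0.27 and -0.21, and Krt19 had 0.02. Summed over the keratin list with Krt42, levels were 578, 509 and 820 CPM with mCdx2 and 775, 645 and 1005 CPM with rCdx2.

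Krt42, a type I keratin that sits on chromosome 11 beside the epithelial keratins, went the other way. It had 4.87 and 3.60 CPM with mCdx2 in mESCs and 1.54 and 1.46 CPM with rCdx2, and 0.48 against 0.28 CPM in RMES cells (log2 fold change 1.37, SE 0.274, edgeR adjusted p = 0.0309). Its mean was 39.7 counts per library, under the 50 set for ranking, and on the rat genome it had 1 count with mCdx2 and 6 with rCdx2. The difference thus rests on mESCs. Krt42 was named because an earlier analysis of these data had called it in mESCs, so its call here is no independent support. Without mESC replicate 1 or 2 it lost its call (edgeR adjusted p = 0.412 and 0.129).

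Among imprinted genes, 25 of 25 list members were tested and 2 were called, both lower with mCdx2, against 0.327% of all tested genes called lower. With so few members, nothing particular to the list was read from this count. Peg10, a paternally expressed gene of retrotransposon origin that the placenta needs, had 5852, 5371 and 7116 CPM with mCdx2 and 7052, 7004 and 7836 CPM with rCdx2 (log2 fold change -0.26, SE 0.035, edgeR adjusted p = 0.00158). H19, the maternally expressed non-coding RNA next to Igf2, had 6076, 5209 and 6524 CPM against 6884, 5911 and 7452 CPM (log2 fold change -0.18, SE 0.0257, edgeR adjusted p = 0.00194). Its ratios of -0.18, -0.18 and -0.19 were close together. H19 lost its call in the fit of 24 libraries (edgeR adjusted p = 0.8255) and without mESC replicate 2 (0.1533). The growth factor Igf2 was at -0.36 with an edgeR adjusted p of 0.167, and Grb10, an adaptor of insulin signalling, at 0.28 with 0.0501. The median of the imprinted list was -0.07.

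The other genes named by rank and lower with mCdx2 came from several families, with log2 fold changes from -0.67 to -0.42. They were Gbp2, an interferon-inducible GTPase; Arap3, which inactivates small GTPases; Tagln, an actin-binding protein; Stra8, which starts meiosis in germ cells; Slc13a4, a sulfate transporter; Cryab, a small heat shock protein; Dsc2, a cadherin of desmosomes; and Gjb2, a gap junction protein. Gjb2 was the steadiest, with log2 ratios of -0.44, -0.37 and -0.43, and Stra8 was uneven, with -0.64 and -0.53 in mESCs and -0.22 in RMES cells. Cryab passed narrowly (edgeR adjusted p = 0.0497). The remaining calls, named after their values were seen, included the actin-associated genes Flnc, Tpm1, Tpm2 and Cnn2 and the placental kinase gene Nrk, at log2 fold changes between -0.38 and -0.25. Nrk had -0.56 and -0.55 in mESCs and -0.04 in RMES cells.

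Of the genes higher with mCdx2, Gpx2, a glutathione peroxidase of epithelia, had the lowest adjusted p. It had 14.1 and 11.0 CPM with mCdx2 and 8.37 and 7.04 CPM with rCdx2 in mESCs, and 41.3 against 18.4 CPM in RMES cells (log2 fold change 0.94, SE 0.107, edgeR adjusted p = 0.000705). Mouse Gpx2 thus differed more than 2-fold in RMES cells, while its rat copy there differed less, with 2457 against 2024 counts (log2 ratio 0.29). A2m, which encodes the protease inhibitor alpha-2-macroglobulin, had 11.6, 11.6 and 15.6 CPM against 8.54, 6.15 and 6.73 CPM (log2 fold change 0.88, SE 0.136, edgeR adjusted p = 0.00595). Rnf225, a RING finger gene, had 8.80, 8.29 and 9.64 CPM against 5.62, 4.85 and 4.62 CPM (log2 fold change 0.85, SE 0.134, edgeR adjusted p = 0.00652). For A2m and Rnf225 every mCdx2 library lay above every rCdx2 library.

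Below these 3, 8 genes named here had log2 fold changes from 0.34 to 0.47. They were D1Pas1, a germ cell RNA helicase close in sequence to Ddx3x, whose reads may be shared; Lefty2, an inhibitor of Nodal; Sgpp1, a phosphatase of sphingosine phosphate; Stmn2, a regulator of microtubules; Rassf4, a Ras-association protein; Cobll1; Dnah8, a dynein of cilia and sperm tails; and the septin Sept1. Rassf4 had 54.5, 52.0 and 51.2 CPM with mCdx2 and 41.6, 41.8 and 39.2 CPM with rCdx2, so the groups did not overlap. Dnah8 lay between 5.58 and 7.62 CPM in RMES cells and between 55.7 and 71.6 CPM in mESCs, and the rat copy had 1449 against 1525 counts. Lefty2 was similarly low in RMES cells, with 3.69 against 3.09 CPM, so most reads behind both calls came from mESCs. On the mouse genome of RMES cells Dnah8 still had a log2 ratio of 0.45, against 0.30 and 0.35 in the mESC replicates.

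**Figure D2:**
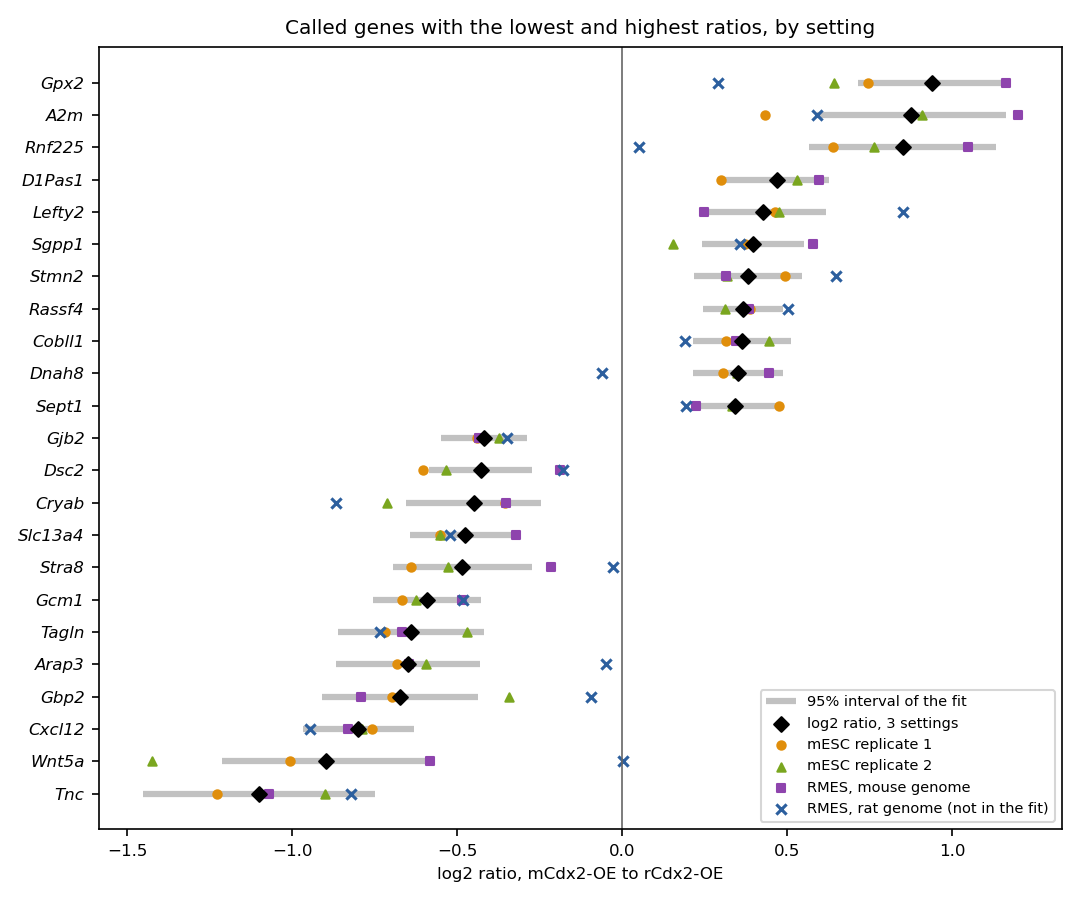
Ratio between mCdx2-OE and rCdx2-OE on the log2 scale (x axis) for the 12 lowest and 11 of the highest called genes that averaged 50 counts or more. Black diamonds and grey bars give the fit with its 95% interval, coloured points each setting, and crosses the rat genome of the same RMES libraries. The settings share a sign for each gene because the genes were selected so. The crosses of Wnt5a and Dnah8 fall at or across 0, and those of Stra8, Arap3, Rnf225 and Gbp2 lie close to it.

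The reads of the rat genome in RMES cells gave a check of sign that the fit did not use, although from the same 2 RMES libraries. Of the 71 called genes, 63 had rat counts under the same symbol, and 54 (85.7%) kept their sign there. Over all tested genes with rat counts the share was 62.6%. That share includes genes whose mouse reads in RMES cells go against the fit, while the called genes all follow it there. The shares are thus not a like comparison. Any difference between these RMES libraries would appear on both genomes, so what made them differ was not tested by this. No minimum rat count was set, so some kept signs rest on little. A2m had 4 rat counts with mCdx2 and 2 with rCdx2, and Rnf225 had 34 and 33. Gbp2 had a log2 ratio of -0.09 on the rat and -0.79 on the mouse genome of RMES cells. The genes lower with mCdx2 kept their sign in 41 of 44 cases, with a median log2 ratio of -0.23 on the rat and -0.30 on the mouse genome. Those higher did so in 13 of 19, with 0.19 on the rat and 0.38 on the mouse genome. Upp1, a uridine phosphorylase named after its values were seen, was the largest exception after Krt42, at 0.28 in the fit and -0.72 on the rat genome.

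RMES cells also allowed a reading with no shared library. In mESCs alone, with the replicate as a block, 734 of 14695 genes (4.99%) were called, 335 higher and 399 lower with mCdx2. Leaving out RMES cells therefore raised the count of calls, and all 71 genes were among the 734. Apart from Cdx2, 464 of 733 (63.3%) had the same sign on the mouse genome of RMES cells, against 53.1% of all tested genes, and 388 of 646 (60.1%) on the rat genome, against 52.4%. Genes lower in mESCs kept their sign in RMES cells more often (68.7% of 399) than those higher (56.9% of 334), a difference that was not tested. The median log2 ratio of the lower genes was -0.27 in mESCs and -0.07 in RMES cells, and that of the higher genes 0.20 and 0.02. Because the genes were selected on their mESC values, the larger sizes there are fixed in part by that choice and the sizes were not compared.

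Over the 7902 genes that averaged 500 counts or more, the ratios of both mESC replicates correlated with Pearson's r of 0.46, and each of them with RMES cells at 0.095 and 0.14. The mouse and rat genomes of the RMES libraries, which share cells and depth, correlated at 0.55 over 7244 genes. These are correlations across genes, which are not independent replicates. Over all 15284 genes other than Cdx2 the corresponding values for the mouse genome were 0.15, 0.056 and 0.068.

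**Figure D3:**
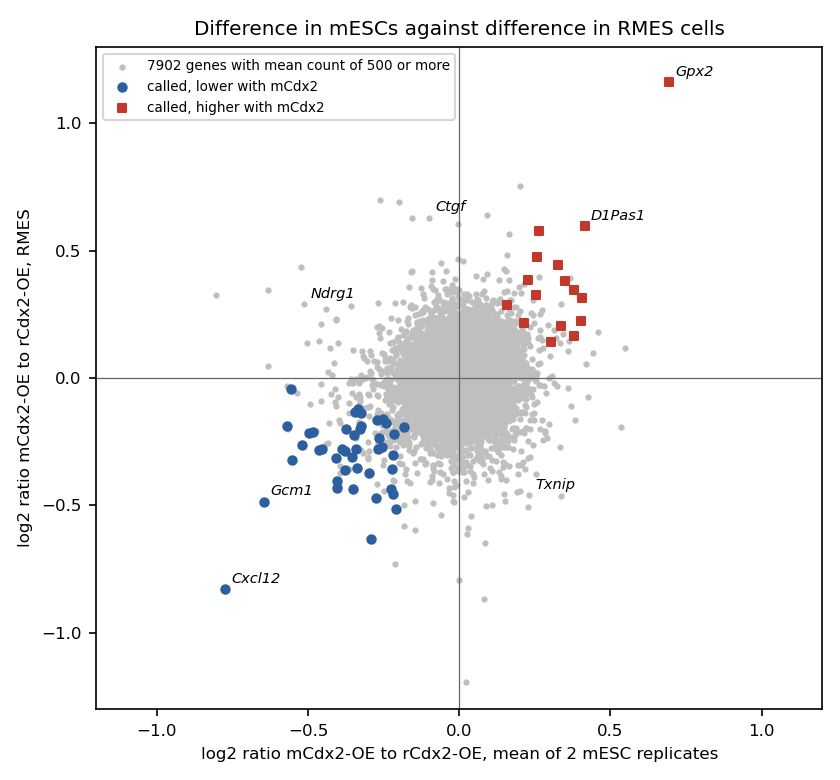
Ratio between mCdx2-OE and rCdx2-OE on the log2 scale in RMES cells (y axis) against the mean of 2 mESC replicates (x axis) for 7902 genes that averaged 500 counts or more (grey). Genes called lower (blue circles) and higher (red squares) with mCdx2 lie in the corners where both cell types share a sign, and the grey cloud shows little slope (r of 0.095 and 0.14 for each replicate).

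Whether the proteins differed otherwise in RMES cells than in mESCs was tested as an interaction. Of 15645 genes, 1 (0.00639%) passed, and it was Cdx2, whose own reads sort by species in RMES cells (interaction 7.01 on the log2 scale, SE 0.562, edgeR adjusted p = 1.54e-05). At an unadjusted p under 0.05 there were 761 genes, Cdx2 included. The next lowest adjusted p was 0.0973, shared by Ndrg1, Ctgf, Txnip and Cebpg. Ndrg1, a gene induced by low oxygen, had 62.1 against 91.8 CPM and 61.1 against 84.4 CPM in mESCs, lower with mCdx2, and 51.2 against 41.9 CPM in RMES cells, higher with mCdx2. On the rat genome it was higher with mCdx2 as well, with 1987 against 1524 counts.

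Ascl2, a basic helix-loop-helix factor of trophoblast, had the same pattern (13.4 against 20.2 CPM and 12.7 against 17.4 CPM in mESCs, 39.0 against 28.9 CPM in RMES cells). Its interaction of 0.98 did not pass (SE 0.193, edgeR adjusted p = 0.153). Sorcs2, a sorting receptor of neurons, was lower with mCdx2 in mESCs (8.14 against 13.1 CPM and 7.71 against 12.9 CPM) and near equal in RMES cells (14.4 against 14.9 CPM), with an interaction of 0.68 (SE 0.214, edgeR adjusted p = 0.792). Over the 3 settings none of Ndrg1, Ascl2 and Sorcs2 was called. The size of the interaction count depended on the spread used: with the 6 libraries of the comparison alone it was 788, and with 1 mESC replicate left out 265 or 302.

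Of the pluripotency factors none was called. All 15 list members were tested, 13 had values above 0, and the median was 0.11. Of the 15, 6 had the same sign in all 3 settings, against 32.6% of all tested genes. Pou5f1 had 589, 593 and 433 CPM with mCdx2 and 558, 552 and 386 CPM with rCdx2 (log2 fold change 0.12, edgeR adjusted p = 0.325). Sox2 and Klf4, which act with it in the pluripotency network, were at 0.13 and 0.14 (adjusted p = 0.311 and 0.217). The median was 0.16 and 0.15 in the mESC replicates and 0.00 in RMES cells. Summed levels of 5 pluripotency markers were 2122 to 2232 CPM with mCdx2 and 1923 to 2040 CPM with rCdx2 in mESCs, and 1508 and 1469 CPM in RMES cells.

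Other lists held no called member. In the cholesterol list, whose genes encode sterol synthesis and uptake, 21 of 22 values were below 0 with a median of -0.08. The median of all tested genes was 0.01. Of these 22 genes, 14 had the same sign in all 3 settings, against 32.6% of all tested genes. Members of a list are read in the same 6 libraries, so such sign counts are not independent and were not tested. In the Hox clusters 10, 8, 8 and 8 genes of Hoxa, Hoxb, Hoxc and Hoxd were tested. Hoxa7, which patterns the posterior axis, came closest, with 16.2, 18.1 and 6.06 CPM with mCdx2 and 12.2, 13.5 and 3.77 CPM with rCdx2 (log2 fold change 0.50, edgeR adjusted p = 0.0504). The medians of the clusters in that order were 0.15, -0.03, -0.02 and 0.03. Primitive endoderm genes had a median of -0.13 over 13 tested members, with Gata6, a master factor of that lineage, at -0.07 and the basement membrane gene Col4a1 at -0.25 (adjusted p = 0.921 and 0.0677). Intestinal genes (8 of 14 tested), hypoxia and glycolysis genes (26 of 27), amino acid stress genes (15 of 15) and interferon response genes (8 of 12) had medians of 0.15, 0.06, 0.04 and 0.01. The neural and formative gene Cdh2 was at 0.14 (adjusted p = 0.53).

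The few markers chosen for feeder cells and primitive endoderm were low. Of 7 fibroblast markers for feeder cells 3 were measured, and their sum was 3.56 to 3.72 CPM with mCdx2 and 3.21 to 4.24 CPM with rCdx2 in mESCs, and 6.86 and 9.03 CPM in RMES cells. The sum of 4 primitive endoderm markers was 6.58 to 11.9 CPM in all 6 libraries. The list of 13 primitive endoderm genes summed to 1162 to 1728 CPM, so the low level holds for those 4 markers only. The 4 trophoblast markers measured summed to 148 to 156 CPM with mCdx2 and 167 to 180 CPM with rCdx2 in mESCs. In RMES cells they summed to 238 and 221 CPM, all beside strong pluripotency markers. Tfap2c held most of each sum, with 129.5 and 143.0 CPM with mCdx2 and 140.6 and 164.1 CPM with rCdx2 in mESCs. It had 201.0 and 191.3 CPM in RMES cells and was not called (edgeR adjusted p = 0.676). Mitochondrially encoded genes held 235 to 287 CPM on the mouse genome of RMES cells and 29440 to 42430 CPM in mESCs (median 0.08, 11 tested). Their median log2 ratios were -0.06 and 0.02 in the mESC replicates and 0.27 in RMES cells, where their counts were low.

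**Figure D4:**
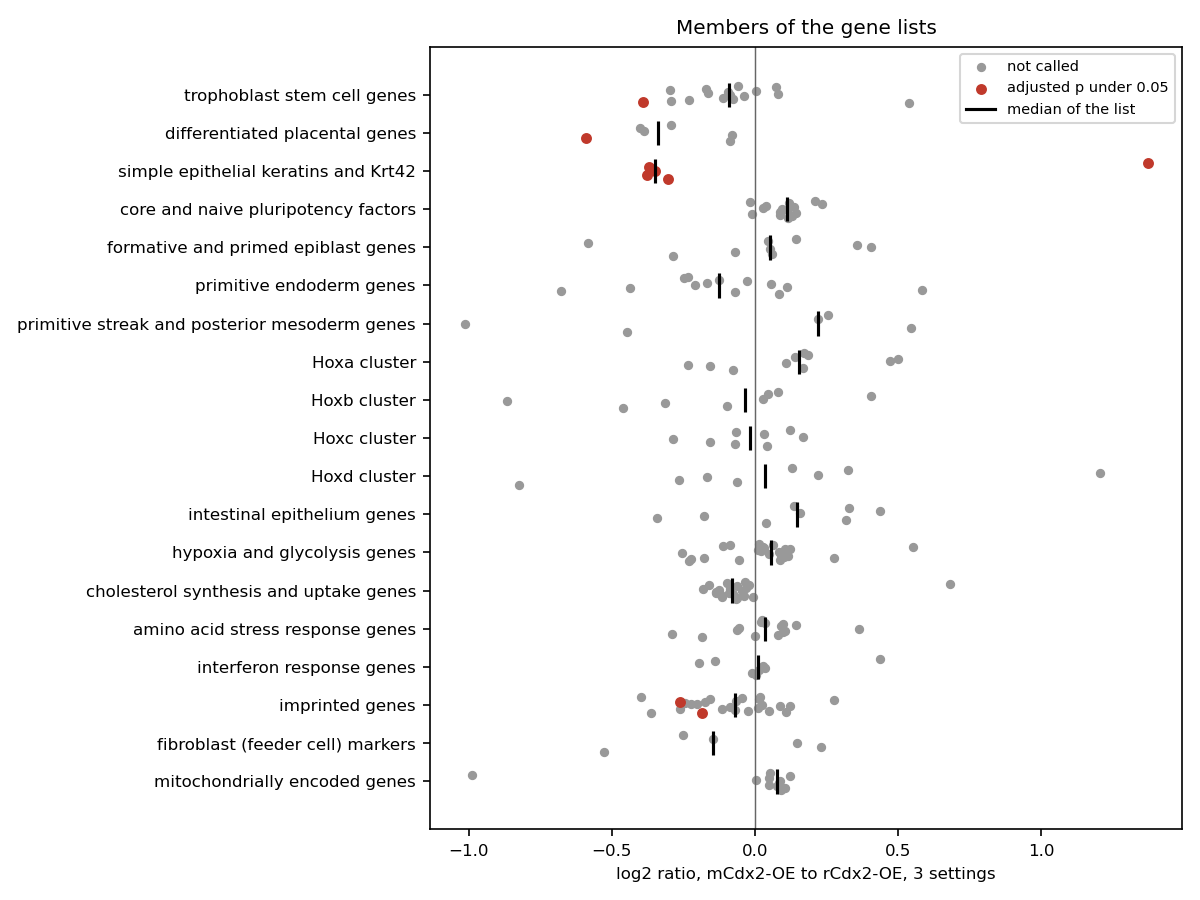
Ratio between mCdx2-OE and rCdx2-OE on the log2 scale over 3 settings (x axis) for each tested member of 19 gene lists (rows), with called members in red, others in grey and the list median as a black bar. Red points occur in 4 lists (trophoblast stem cell, differentiated placental, keratin and imprinted genes).

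The mESC libraries with rCdx2 mutants and WT cells give these differences a scale. On a common normalisation of 24 libraries, Gata2 had 2.15 and 1.81 CPM in WT mESCs, 11.2 to 39.6 CPM (median 17.9) in the 14 mutant libraries, 75.8 and 73.1 CPM with mCdx2 and 101 and 105 CPM with rCdx2. Krt8 rose in the same order, from 14.6 and 13.6 CPM in WT through 27.7 to 87.5 CPM in the mutants to 192 and 166 CPM with mCdx2 and 262 and 215 CPM with rCdx2. For 48 of the 50 genes lower with mCdx2 (96.0%), all 14 mutant libraries lay below all 4 libraries of the intact proteins. This held for 17.2% of all tested genes. Among the 14 were the libraries of the construct with all of the mouse-specific changes. Cdx2 RNA itself ran from 37.7 to 148.1 CPM (median 64.2) in the mutant libraries, with 62.5 and 39.3 CPM in that construct. Of the 14, 7 had less Cdx2 RNA than both rCdx2 libraries and 3 had more than both mCdx2 libraries. The part of Cdx2 dose in this order was not tested. The WT mean lay below the 4 libraries of the intact proteins for 46 of the 50, against 42.0% of all tested genes.

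For the genes higher with mCdx2 the order was mixed. All 14 mutant libraries lay above both proteins for 10 of 21 (47.6%, against 15.0% of all tested genes), among them Gpx2 (26.0 to 44.8 CPM in mutants), Dnah8 (205 to 278 CPM) and Krt42 (9.59 to 15.3 CPM). For Krt42 the order was 9.59 to 15.3 CPM in mutants, 8.55 and 8.35 CPM in WT, 4.39 and 3.17 CPM with mCdx2 and 1.40 and 1.28 CPM with rCdx2. Rassf4 ran opposite, with 1.12 and 1.08 CPM in WT, 25.8 to 37.2 CPM in mutants, 37.7 and 36.8 CPM with rCdx2 and 49.2 and 45.8 CPM with mCdx2. The proteins being compared lend their own libraries to both sides of this order, so it is a description.

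**Figure D5:**
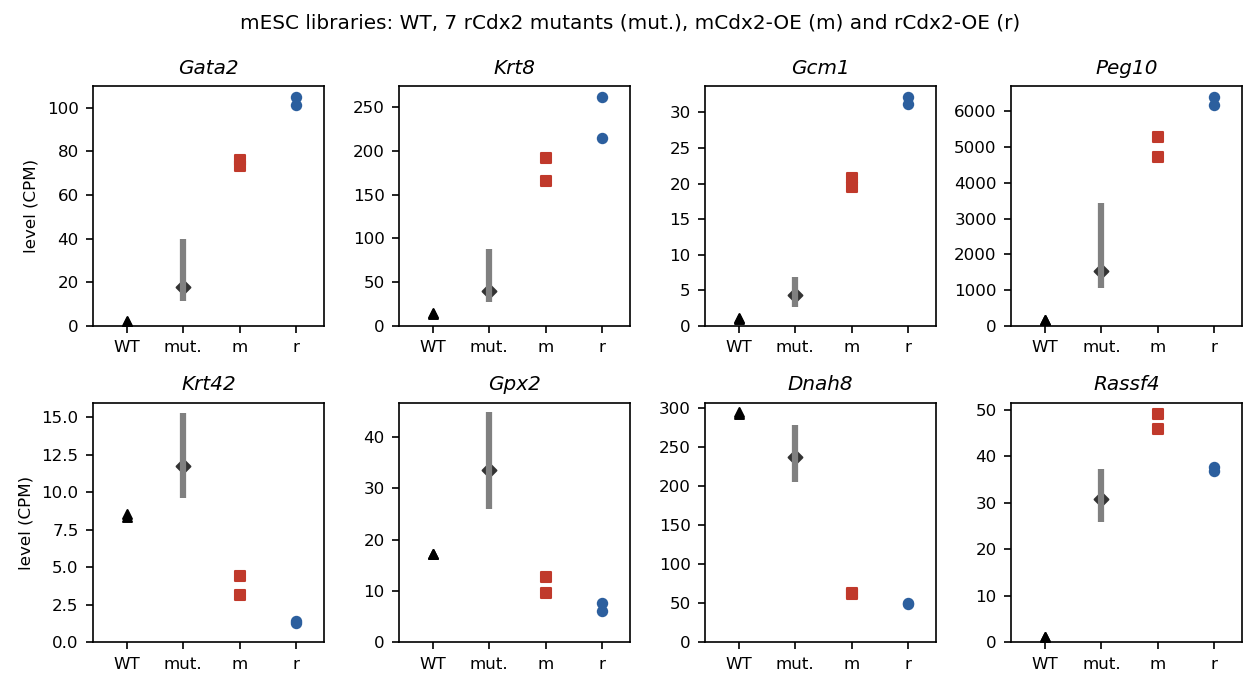
Level in CPM (y axis, from 0) of 8 called genes in mESC libraries: 2 WT (black triangles), 14 with rCdx2 mutants (grey bar from lowest to highest, diamond at the median), 2 mCdx2-OE (red squares) and 2 rCdx2-OE (blue circles). Gata2, Krt8, Gcm1 and Peg10 rise from WT to rCdx2, and Krt42, Gpx2 and Dnah8 are lowest with rCdx2.

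A set of genes that differed between the 14 mutant libraries and 2 WT libraries was defined without the libraries of either intact protein. Its direction need not be that of the intact proteins. Tagln, among the lower genes, had 9.12 and 9.46 CPM in WT and a median of 0.766 CPM in the mutants. It had 12.3 and 9.14 CPM with mCdx2 and 20.3 and 12.7 CPM with rCdx2. How many genes of the set do so was not counted. It held 1965 genes more than 2-fold higher (12.7% of those tested) and 2052 more than 2-fold lower (13.3%) at an adjusted p under 0.05. Of the higher genes, 1841 were tested between the proteins, and 28 (1.52%) were called, 20 lower and 8 higher with mCdx2. Of the lower genes 1456 were tested and 7 (0.481%) were called, near the 0.465% of all genes. The median difference between the proteins was -0.01 over the genes that rose and 0.02 over those that fell, against -0.39 for Gata2 and -0.38 for Krt8.

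Cdx2 binding near these genes was read from peaks that the authors called on merged reads of both proteins, so no peak was assigned to one protein. In mESCs a peak lay within 30 kb of the gene start for 33 of 50 genes lower (66.0%) and all 21 genes higher with mCdx2, against 76.7% of all tested genes with a position. In RMES cells, on the mouse genome, the counts were 30 of 50 (60.0%) and 17 of 21 (81.0%), against 65.4%. Near Krt7, Krt19, Gjb2, Slc13a4 and Tagln no peak was found in that window in either cell type.

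The mESC peak nearest to the gene start is shown for 4 genes, as a view of the sequence under the merged binding signal. Each is 200 bases of the mm10 plus strand around the peak centre, outside any annotated exon, from the GRCm38.p6 assembly of RefSeq. The letters CATAAA and CAATAAA, forms of the Cdx recognition sequence, were searched on both strands, and matches (also as TTTATG and TTTATTG) are in capitals. At Cxcl12, chr6:117166819-117167018 lay 1.62 kb upstream of the start. At Gata2, chr6:88203915-88204114 lay in an intron 10.1 kb downstream of the start. At Gpx2, chr12:76788705-76788904 lay 6.75 kb downstream of the start, beyond the gene. At A2m, chr6:121637400-121637599 lay in an intron 2.12 kb into the gene.
Cxcl12: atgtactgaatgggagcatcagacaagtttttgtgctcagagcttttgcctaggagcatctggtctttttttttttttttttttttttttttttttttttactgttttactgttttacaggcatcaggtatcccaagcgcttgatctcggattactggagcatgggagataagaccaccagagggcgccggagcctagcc
Gata2: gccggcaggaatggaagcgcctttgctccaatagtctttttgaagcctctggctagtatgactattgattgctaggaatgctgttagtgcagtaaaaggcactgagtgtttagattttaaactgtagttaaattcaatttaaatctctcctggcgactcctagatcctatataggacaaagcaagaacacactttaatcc
Gpx2: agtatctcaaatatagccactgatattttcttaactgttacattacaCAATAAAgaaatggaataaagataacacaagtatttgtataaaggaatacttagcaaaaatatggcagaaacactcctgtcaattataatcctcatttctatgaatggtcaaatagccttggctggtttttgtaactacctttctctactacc
A2m: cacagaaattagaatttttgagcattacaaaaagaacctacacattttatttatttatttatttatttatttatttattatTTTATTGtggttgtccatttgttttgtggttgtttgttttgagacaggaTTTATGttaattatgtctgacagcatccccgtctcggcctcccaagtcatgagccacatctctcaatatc

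The windows at Cxcl12 and Gata2 held no match. The Gpx2 window held CAATAAA once, and the A2m window held TTTATTG and TTTATG once each. Among all 91665 mESC peaks, 56.3% of windows of this length held at least 1 match, 40.6% CATAAA and 24.8% CAATAAA. Of the nearest peaks at Gcm1 and Krt18, 4.81 and 10.1 kb downstream of the start, the first held 2 matches and the second held none. Other peaks lay within 30 kb of each of these starts, so the count of matches depends on which peak is shown.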

How the data were processed

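Polyadenylated RNA was sequenced as stranded libraries. Per the paper's methods and the labels, the authors aligned reads with STAR 2.7.0d to mm10 and, for RMES cells, also to rn6, assigned each RMES read to the genome with the smaller edit distance, and counted read pairs per gene with featureCounts. The deposited values are raw counts. The authors removed pseudogenes from the annotation, so reads of such copies can enter their parent gene. Replicate 2 was counted in a separate run. The 6 libraries held 12969068 to 36283079 counts.

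Counts of 19919 gene symbols shared by the mouse tables were tested with edgeR 4.0.16 in R 4.3.3 (limma 3.58.1): TMM normalisation, filterByExpr, a quasi-likelihood fit with setting and protein as terms, 2 residual degrees of freedom per gene, adjusted p under 0.05. SE was derived from the fold change and F. The interaction used a term for the mESC replicate and all 24 RNA-seq libraries. CPM are TMM-scaled. Ratios per setting and on the rat genome (identical symbols, 12278 tested genes) used a prior count of 2. The median SE was 0.0855 on the log2 scale. Scripts were tested on simulated counts. Alternatives were DESeq2 1.42.0, other normalisations and filters, fits without the block and left-out settings. Named genes were Cdx2 and the 12 highest and 12 lowest called genes with at least 50 counts on average and 1 sign in all settings. Called list members and genes the study names were added. Krt42, Sorcs2 and Ndrg1 were added because an earlier analysis of these data had called them in mESCs. Some named genes are not reported here. The members and gene lists were chosen with earlier results of these data known. ChIP-seq peaks (called by the authors with MACS2 on merged reads) were used for position only, since the read counts per peak could not be assigned to a protein. The 4 genes with a printed peak had first been chosen with the peak of most reads, and the nearest peak replaced it after those windows were seen. ATAC-seq and rat peaks were not used here. Positions are from GENCODE on GRCm38. Figures used Python 3.11.15 and matplotlib 3.10.9.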

Additional observations from a re-analysis of the deposited data

Results flagged for a closer look

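Cdx2 was the single gene whose difference between the proteins itself differed between cell types by the interaction test. The difference of the log2 ratio, RMES cells less mESCs, was 7.01 (SE 0.562, edgeR adjusted p = 1.54e-05), with log2 ratios of 0.48 and 0.93 in the mESC replicates and 7.75 on the mouse genome of RMES cells. Reads were assigned to a species in RMES cells only, and on the rat genome the log2 ratio was -4.24.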

How the results depend on the processing

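The count of 71 called genes became 46 with DESeq2, 288 with no filter on low counts, 120 with robust dispersion, 8 with 24 libraries in the fit (7 higher, 1 lower), 2 with a required 2-fold change, and 2 with 10 libraries and no mutants (Cdx2 and Gpx2, both higher), a fit chosen after seeing the data. The Cdx2 call in the fits of 24 and 10 libraries rests in part on reads sorted by species in RMES cells. Without the replicate block the count of calls was 0, both with and without a term for cell type. Same-numbered mCdx2 and rCdx2 libraries in mESCs deviated together (correlation across genes 0.44), but over 45 condition pairs the value ranged from -0.11 to 0.44, so the numbers alone do not establish pairing. Leaving out 1 setting gave 43 to 734 calls: 60 without mESC replicate 1, 43 without mESC replicate 2 and 734 without RMES cells. In these 3 fits 25 of the 71 genes stayed called each time, among them Cxcl12, Tnc, Wnt5a, Gcm1, Gata2, Krt8, Krt18, Gpx2, A2m and Rnf225. The cause of these shifts was not tested. No called named gene changed sign under any setting. Ascl2, which was not called, went from -0.09 to 0.13 and 0.01 without mESC replicate 1 or 2 and was at -0.54 without RMES cells.

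The single interaction call became 788 with the 6 libraries alone, 20 with DESeq2, and 2 each with DESeq2 size factors and with no filter on low counts. It was 265 to 302 with 1 mESC replicate left out, where only the WT RMES pair gives a spread and lone samples are assumed to vary like it, and 1 both with no replicate block and, as chosen after seeing the data, without WT RMES cells. The count of 4017 genes that differed between mutants and WT stayed within 1.5 times of that count in each alternative run (3549 to 5572).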
